A study of Drosophila melanogaster with 2 samples.

Results

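The Sox genes of *Drosophila melanogaster* encode transcription factors that carry an HMG box, a DNA-binding domain that sits in the minor groove and bends the helix. The annotation holds 8 of them, out of 13945 protein-coding genes with a start on the assembled chromosome arms: SoxN, D (Dichaete), Sox21a and Sox21b of group B, Sox14 of group C, Sox102F of group D, Sox100B of group E and Sox15 of group F. The genes were chosen by family membership, by a selection made with the peak signals of these data in view, the high signal at Sox14 among them. Their counts and signals are therefore a description, and no test was run on them. The peak lists come from chromatin immunoprecipitation with sequencing in whole adult male flies of the strain CG12768-GFP, which carry a transgene for CG12768 joined at its C terminus to GFP. All samples share this transgene, the labels give the flies' age as unknown, and they do not name the promoter that drives it. An antibody against GFP recovered the DNA from 2 biological replicates of this single group, so there is no second condition, and no list from flies without the tag was used here.

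The 4 deposited lists on the dm6 build were read. Each replicate has a list of 30000 peaks, a pooled list of 30000 peaks was called on both replicates together, and the thresholded list keeps 6066 peaks after an irreproducible discovery rate (IDR) step. Every thresholded peak held the same rank in the pooled list, so the thresholded list is the top of the pooled one: its last peak had a signal of 141. Signal is the value that the authors' peak caller gave each peak, in units that are not stated, and rank 1 is the highest signal of a list. A promoter summit lies no more than 500 bp from a protein-coding transcript start, and a locus is the gene body with 5 kb on either side. With no read counts in the lists, library depth is unknown. Whole flies mix many cell types, so a summit in a few cells and a weak one in all cannot be told apart.

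Sox proteins act in cell fate decisions, usually with a partner factor at a neighbouring DNA site. SoxN and D act early in the formation of the embryonic nervous system, and D also in segmentation. Sox21a controls the differentiation of intestinal stem cell daughters in the adult gut, and Sox14 is induced by the steroid hormone ecdysone at metamorphosis, when it is needed for sensory neurons to prune their dendrites. Sox100B acts in the development of the male gonad, and Sox15 in the wing and in bristle organs. CG12768 itself is a protein with a MADF domain, a DNA-binding domain of the Myb type.

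The sequences below are 3 windows of 200 bp centred on summits, shown because they are the thresholded summits that the rule assigns to Sox102F and Sox100B and, for group B, where no summit passed the threshold, its strongest pooled summit, in Sox21b. They are read on the plus strand of the RefSeq Release 6 assembly, which has dm6 coordinates, although Sox102F and Sox21b lie on the minus strand. Capitals mark the core site of Sox proteins, which is ACAAT and on the opposite strand of the DNA reads ATTGT, and the element of the GAGA factor, which is GAGAG and on the opposite strand of the DNA reads CTCTC.
Sox102F, chr4:807605-807804: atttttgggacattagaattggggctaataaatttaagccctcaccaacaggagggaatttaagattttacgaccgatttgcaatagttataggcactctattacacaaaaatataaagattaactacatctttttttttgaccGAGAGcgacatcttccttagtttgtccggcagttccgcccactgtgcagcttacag
Sox100B, chr3R:31061227-31061426: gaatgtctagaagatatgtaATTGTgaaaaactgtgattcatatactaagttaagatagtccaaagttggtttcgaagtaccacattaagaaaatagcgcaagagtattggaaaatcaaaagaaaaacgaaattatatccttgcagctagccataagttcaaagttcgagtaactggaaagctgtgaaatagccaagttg
Sox21b, chr3L:14120137-14120336: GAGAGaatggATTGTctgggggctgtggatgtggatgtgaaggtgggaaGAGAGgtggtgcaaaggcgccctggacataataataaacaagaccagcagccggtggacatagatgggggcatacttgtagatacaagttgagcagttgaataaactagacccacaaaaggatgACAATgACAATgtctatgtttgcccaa
The Sox102F window held no Sox core site and 1 GAGAG, the Sox100B window held 1 Sox core site and no GAGAG, and the Sox21b window held 3 Sox core sites and 2 GAGAG.

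Sox14 (FBgn0005612, 2R 23978801-23985177, plus strand) had 1 of the strongest peaks of the whole series. Its summit lay 240 bp upstream of the first of its 3 starts, with a signal of 2331 and rank 14 of 6066. In replicate 1 the matching summit lay 235 bp upstream, with a signal of 948 and rank 19 of 30000. In replicate 2 it lay 253 bp upstream, with a signal of 1387 and rank 14. Both replicates thus placed the peak at nearly the same position and among their strongest. Among the 3613 genes with a thresholded promoter summit the median signal was 259, and 3604 of them (99.8%) were below Sox14. It was 8th of 2716 different promoter peaks, next to those of CG1888 (signal 2669, rank 10), of CG18428 and eIF4EHP together (2557, rank 12; eIF4EHP is a cap-binding repressor of translation), of Lpin, a phosphatidate phosphatase (2320.2, rank 15), and of CHMP2B and Tcs5 together (2243, rank 16).

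The Sox14 peak belonged to the promoter of no other protein-coding gene, and starts of non-coding genes were not searched. The nearest start of another coding gene was that of PPP1R15, which encodes a regulatory subunit of the eIF2alpha phosphatase and points away from Sox14, 1306 bp from the summit. The other starts of Sox14 lay 538 and 1334 bp downstream of the summit. At the third start the pooled list had a weaker summit 183 bp upstream (signal 114, rank 8161). Replicate 1 had it at the same place (67.3, rank 7772) and another 20 bp downstream (28.5, rank 23506). Replicate 2 had summits 277 bp (45.3, rank 10627) and 39 bp upstream (39, rank 13302). Within the whole locus the pooled list had 11 summits, replicate 1 had 12 and replicate 2 had 10, of which the promoter summit alone passed the threshold. The next in pooled signal came just below it (signal 139, rank 6217). That summit lay past the 3′ end of Sox14 and 79 bp from the start of Phm, the enzyme that hydroxylates peptide hormones for amidation.

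**Figure D1:**
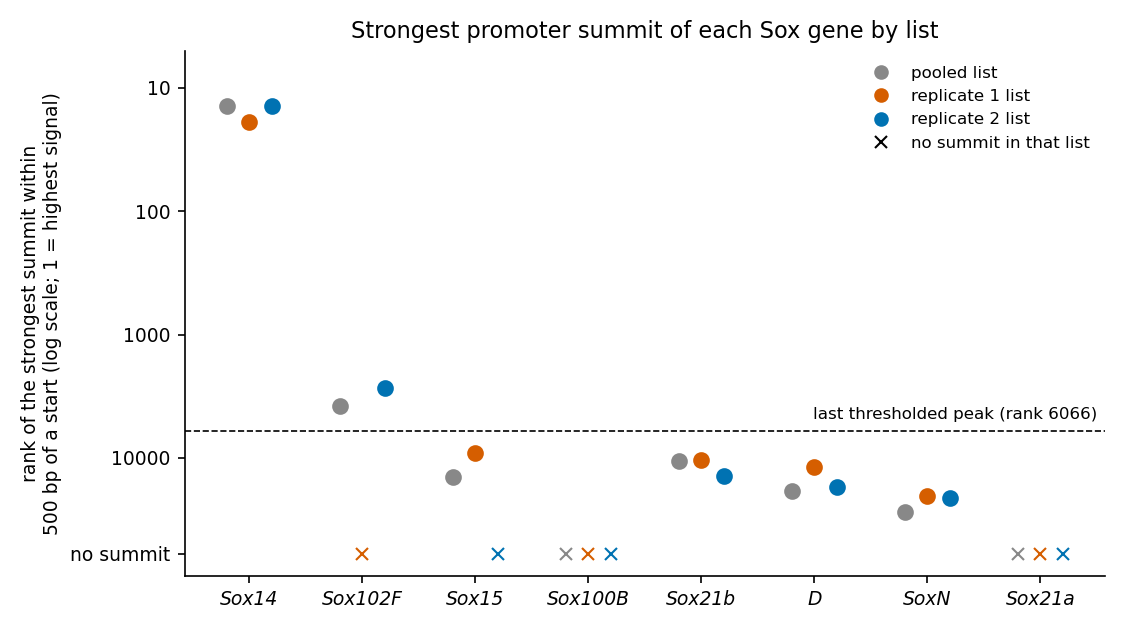
Rank of the strongest promoter summit of each Sox gene (vertical axis, log scale, rank 1 at the top) in the pooled list and in each replicate's list, with crosses where a list has none. Sox14 sits at ranks 14 to 19 in all lists, Sox102F above the threshold in the pooled list and replicate 2 with no summit in replicate 1, and every other value lies below the last thresholded rank of 6066.

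Sox102F (FBgn0039938, chromosome 4 800436-834393, minus strand) was the other gene with a thresholded promoter summit, and of the replicates only replicate 2 had a matching summit. The gene has 3 starts, spread over 30313 bp. The summit lay 358 bp upstream of the second, which begins the transcripts Sox102F-RA and Sox102F-RD, and so inside an intron of the long transcript, 26688 bp downstream of the first start. Its signal was 194, with rank 3771, and 29.3% of bound genes had a lower promoter signal. In replicate 2 the summit lay 377 bp upstream of the same start, with a signal of 118 and rank 2724. In replicate 1 no summit fell anywhere in the 43958 bp of the locus, where replicate 2 had 16 and the pooled list 9.

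Chromosome 4 as a whole differed between the replicates. Replicate 1 had 48 of its 30000 peaks there (0.16%) and replicate 2 had 518 (1.73%). Of the 25 thresholded peaks on this chromosome, 25 had a summit of replicate 2 within 250 bp and 12 (48%) one of replicate 1, against 98.7% in each replicate over all 6066. The part of this difference in the Sox102F result was not tested. At the first Sox102F start the pooled summits were weak, 285 bp upstream (signal 52.1, rank 21801) and 203 bp downstream (44.9, rank 26634), and replicate 2 had one 304 bp upstream (26.9, rank 23434). The nearest coding neighbours, fd102C upstream (gap 2592 bp) and MED26 downstream (gap 11457 bp), had no start closer than 18727 bp to the thresholded summit.

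Sox15 (FBgn0005613, 2R 14201390-14212413, minus strand) and Sox100B (FBgn0024288, 3R 31065253-31083407, plus strand) had thresholded summits within 5 kb upstream that lay closer to other genes. Upstream of Sox15 the stronger summit (signal 411, rank 1020) was 4170 bp from its start and 5 bp from a start of RpS23, a protein of the small ribosomal subunit. It had a signal of 275 and rank 644 in replicate 1, and of 158 and rank 1754 in replicate 2. The second summit (signal 285, rank 2004), 2545 bp upstream of Sox15, was 1620 bp downstream of the nearer RpS23 start, in the 2682 bp between these genes. This second summit ranked 4238 in replicate 1 and 1443 in replicate 2. In the thresholded list these peaks were narrow, 11.2% of its peaks being no wider than the wider of them. The stronger was narrow in both replicates (154 and 151 bp). The other was 143 bp wide in replicate 2, but in replicate 1 it had the median width of that list.

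The downstream neighbour of Sox15, VGAT, the vesicular GABA transporter, lay 140 bp away. At its own single start Sox15 had a weak pooled summit 202 bp upstream (signal 72.1, rank 14363). Replicate 1 had one 298 bp upstream (59.2, rank 9201), and replicate 2 had none within 500 bp. Upstream of Sox100B the thresholded summit (signal 149, rank 5639) was 3926 bp from its start but 117 bp upstream of a start of dco, the casein kinase 1 of the circadian clock (Doubletime). It ranked 7703 in replicate 1 (signal 67.9) and 3339 in replicate 2 (signal 102). A pooled summit just below the threshold (signal 129, rank 6852), 4764 bp upstream of Sox100B, lay 284 bp from the other dco start. No list had a summit within 500 bp of the Sox100B start: the nearest was in replicate 2, 820 bp upstream (signal 27, rank 23326).

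**Figure D2:**
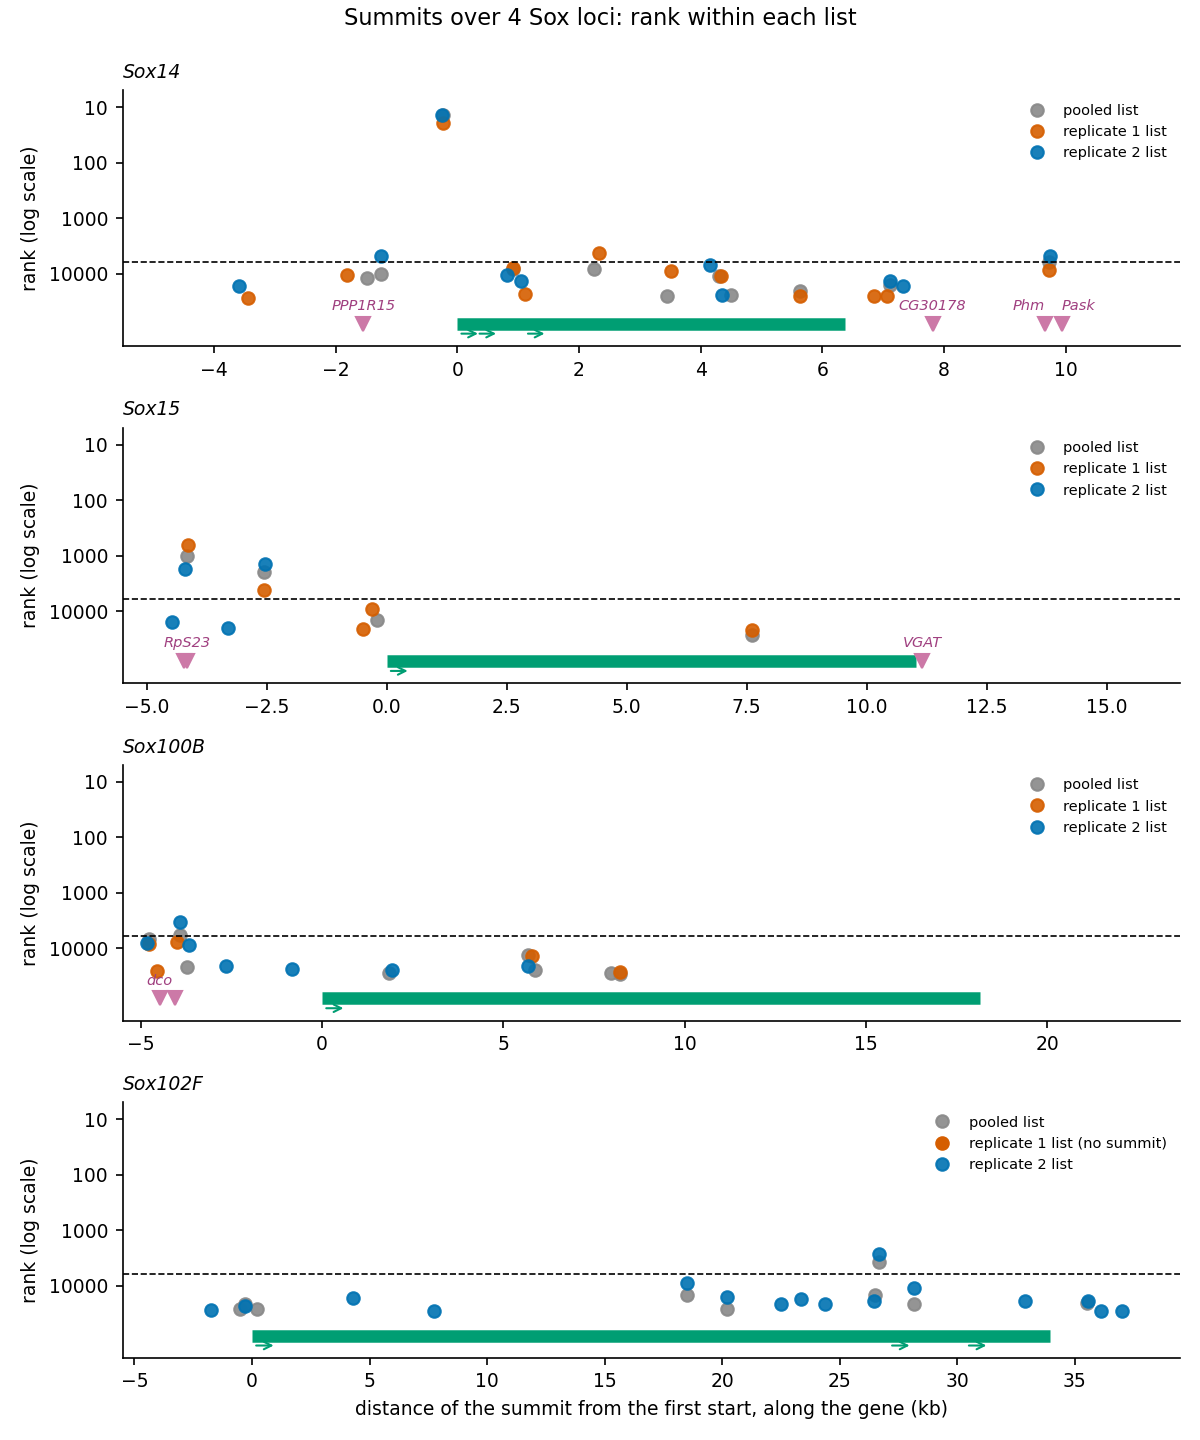
Summits over the loci of Sox14, Sox15, Sox100B and Sox102F, by distance from the first start along the gene (kb) and by rank within each list (log scale). Green bars are gene bodies, green arrows their starts, pink triangles starts of other coding genes, and dashed lines the last thresholded rank. The strongest summits sit at the Sox14 start, at RpS23 upstream of Sox15, at dco upstream of Sox100B and at the internal start of Sox102F, where replicate 1 has none.

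The group B genes had no thresholded summit in their loci, where 54.9% of all coding genes had one. The share was 51.2% for genes under 5 kb, the class of Sox21a, D and SoxN. It was 67.4% for genes of 5 to 20 kb, the class of Sox21b. Sox21a (FBgn0036411, 3L 14103481-14108118, minus strand), Sox21b (FBgn0042630, 3L 14112405-14131324, minus strand) and D (FBgn0000411, 3L 14175610-14178620, minus strand) are the 3 coding genes of a 75140 bp stretch. This stretch lay inside a gap of 141076 bp between neighbouring thresholded summits, where the median gap was 4692 bp. SoxN (FBgn0029123, 2L 8825645-8829670, plus strand) lay in a gap of 196969 bp. Its coding neighbours were also distant, CG42710 at 43144 bp and CG32986 at 33105 bp, while Sox21a had Fbp1 5427 bp downstream and D had nan 7628 bp upstream. Gaps at least as long as the first numbered 163 of 6060 and held the first starts of 18.7% of coding genes. For the second the figures were 86 of 6060 and 12%.

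The nearest thresholded summit was 54870 bp from a start of Sox21a, 63000 bp from Sox21b, 15704 bp from D and 85427 bp from SoxN. At the other 4 genes it was 240 bp (Sox14), 358 bp (Sox102F), 2545 bp (Sox15) and 3926 bp (Sox100B). Over all coding genes the median was 5154 bp. Of all genes 4.57% were at least as far as SoxN, 6.93% as far as Sox21b, 8.45% as far as Sox21a and 27.7% as far as D.

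**Figure D3:**
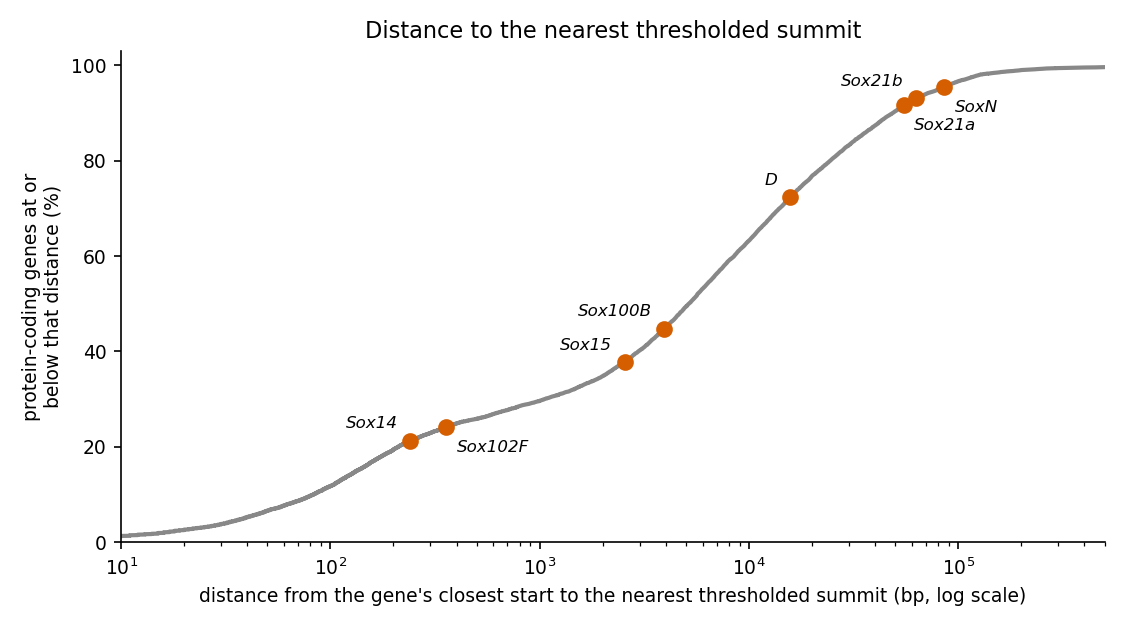
Share of all 13945 protein-coding genes (vertical axis, percent) whose closest start lies within a given distance of a thresholded summit (horizontal axis, bp, log scale), with the 8 Sox genes as points. Sox14 and Sox102F lie under 500 bp, Sox15 and Sox100B below the median of 5154 bp, and the group B genes above it.

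Below the threshold the group B genes had weak summits. In Sox21b an intron summit 11060 bp downstream of the nearer start had a pooled signal of 127 and rank 7035. It was found at the same position in replicate 2 (signal 66.4, rank 6201) and 10973 bp downstream in replicate 1 (59.5, rank 9148). Sox21b also had a promoter summit in each of these lists, 390 bp upstream in the pooled list (92.4, rank 10562), 383 bp in replicate 1 (53.7, rank 10389) and 402 bp in replicate 2 (37.6, rank 14086). These intron and promoter summits thus recurred in both replicates below the threshold. How often other pooled peaks below the threshold recur in both replicates was not counted. The remaining pooled summit of the locus, downstream of Sox21b and 2339 bp upstream of Sox21a (45.1, rank 26440), was at the same place in replicate 1 (30.4, rank 21481), while the nearest of replicate 2 was 3540 bp upstream of Sox21a (23.6, rank 28423).

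D, whose 2 starts are 1083 bp apart, had its strongest pooled summit 287 bp upstream of the second start, in a 5′ UTR (signal 59.1, rank 18555). Replicate 1 had it at the same place (48.2, rank 11824), and replicate 2 had one 427 bp upstream (33, rank 17144). At the first start of D the pooled list had a weaker summit 122 bp downstream (47, rank 24973), replicate 1 had one 204 bp downstream (28.8, rank 23224), and replicate 2 had none within 500 bp. SoxN had a single pooled summit in its locus, 278 bp downstream of the start (43.7, rank 27519). Replicate 1 had a summit 342 bp downstream (28.4, rank 23617), within 250 bp of the pooled one, and a stronger one 474 bp upstream (31.7, rank 20271). The single summit of replicate 2 was 4 bp upstream (28.9, rank 21039), more than 250 bp from the pooled one. Sox21a had no summit within 500 bp of its start in any list. Its strongest in the locus was downstream of the gene in the pooled list (55.2, rank 20280), in the gene body in replicate 1 (40.2, rank 14778) and upstream in replicate 2 (23.6, rank 28423).

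Taking the family as a group, 2 of 8 Sox genes had a thresholded promoter summit, against 25.9% of all coding genes (95% Wilson interval 25.2 to 26.6). The family count thus stood near the background, and the high rank of Sox14 belonged to a single gene. In their loci 4 of 8 had a thresholded summit, where 54.9% of coding genes did. Counting only summits for which the gene's own start was the nearest coding start, a choice made after seeing the data, left Sox14 and Sox102F, or 2 of 8, where 25.4% of coding genes had such a summit. The 5 thresholded summits over the 8 loci came to 0.278 per 10 kb, and the arms held 0.453 per 10 kb. The whole lists did not show a lower density throughout. Over the loci they held 2.33 (pooled), 1.94 (replicate 1) and 2.5 (replicate 2) per 10 kb, against 2.24 over the arms in each. Sox102F, with 43958 of the 180109 bp of the loci, gave 0 of the 35 summits of replicate 1 and 16 of the 45 of replicate 2. The densities were not taken without this gene, so the difference between the replicates cannot be read as one of the family.

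Longer genes had thresholded promoter summits more often: 22.2% of genes under 5 kb, 38% of those of 5 to 20 kb and 34.8% of longer ones. SoxN, D and Sox21a fall in the first class, where 0 of 3 Sox genes had one. Sox14, Sox15, Sox21b and Sox100B fall in the second, with 1 of 4, and Sox102F alone in the last. On chromosome 4, 19 of 80 genes (23.8%, 15.8 to 34.1) had a thresholded promoter summit.

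In the whole lists, which hold background peaks by design, most Sox genes had some summit. The pooled list had a promoter summit at 6 of 8, against 55.8% of coding genes, and a locus summit at 8 of 8, against 87.7%. Replicate 1 had 5 of 8 (52.7% of coding genes) and 7 of 8 (89.3%), the missing locus being Sox102F. Replicate 2 had 5 of 8 (55.1%) and 8 of 8 (86.1%). By strongest promoter summit in the pooled list the order was Sox14, Sox102F, Sox21b, Sox15, D and SoxN, with Sox100B and Sox21a without one. In replicate 1 Sox15 stood above Sox21b and in replicate 2 it had no promoter summit, so the order of these 2 genes did not hold between replicates. Sox14 was first and SoxN last of those with a summit in each list. Of the 5 thresholded summits over the loci, 4 had a summit within 250 bp in both replicates, against 97.4% of all thresholded peaks, the exception being that of Sox102F.

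Base composition and short motifs differed among the 5 thresholded summits. In 200 bp windows the GC content was 46.5% at Sox14, 47.5% at the RpS23 start upstream of Sox15, 38.5% at Sox102F, 33.5% at the dco start upstream of Sox100B and 32% at the second Sox15 summit. Over all thresholded summits the median was 41.5%, with quartiles of 35% and 47.5%. A search of both strands took 13 motifs. The core Sox site is ACAAT, and its longer form, which contains the shorter, is written AACAAT here. The element recognised by the GAGA factor was searched as GAGAG. For the replication-related element of many fly promoters the core was ATCGATA in this search. The general E-box was CANNTG, which takes in the specific form spelled CACGTG and likewise the specific form spelled CAGCTG when present. The promoter words were the TATA box with the letters TATAAA and the initiator core with the letters TCAGT only. The remaining words were the repeat spelled CACACA, the short word with the letters GCTGC, a site of GATA factors with the letters AGATAA, and the site of the AP-1 factors with the letters TGACTCA only. The core Sox site ACAAT was in 2 of the 5 windows, the weaker Sox15 one and that of Sox100B, and in 45.2% of all thresholded summits, 44.7% of flanking windows 500 bp away and 44.9% of windows centred on the first start of each coding gene. Its matches lay towards the window edges, at offsets of 91 bp (Sox15) and -80 bp (Sox100B) from the summit. In the central 100 bp 0 of the 5 windows held it. GAGAG was in 1 of the 5, at Sox102F as printed above, and in 30.5%, 23% and 22.4% of the same 3 kinds of window. The Sox14 window, not printed here, held CANNTG and TCAGT and none of the other 11 motifs. Both are common: CANNTG was in 64.8%, 64.2% and 63.6% of the same 3 kinds of window, and TCAGT in 33.3%, 27.9% and 42.7%. ATCGATA was in none of the 5 and in 5.69% of thresholded summits.

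Of the HMG-box genes outside the Sox family, 6 of 13 had a thresholded promoter summit (46.2%, against 25.9% of coding genes). The count was 3 of 13 in the 3033 thresholded peaks with the highest signal. It was 5 when each summit went to its nearest start, and 7 at 1000 bp. No share of all coding genes was taken at these settings. Hmg-2 had a signal of 1436 and rank 70, with rank 17 in replicate 1 and 240 in replicate 2. The summit of bbx (bobby sox) had a signal of 1297 and rank 91, with ranks 91 and 100. HmgZ, a chromosomal HMGB protein, had 765 and rank 280, with ranks 176 and 453. Dsp1 (signal 195, rank 3755), HmgD (186, rank 4025) and tHMG1 (141, rank 6061) stood much lower. Dsp1 ranked 1791 in replicate 1 and 18790 in replicate 2. In the thresholded list each of these 6 was below Sox14, as were 99.8% of bound genes, and HmgD and tHMG1 were also below Sox102F (194). In replicate 1 Hmg-2, at rank 17, stood above Sox14, at rank 19.

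**Figure D4:**
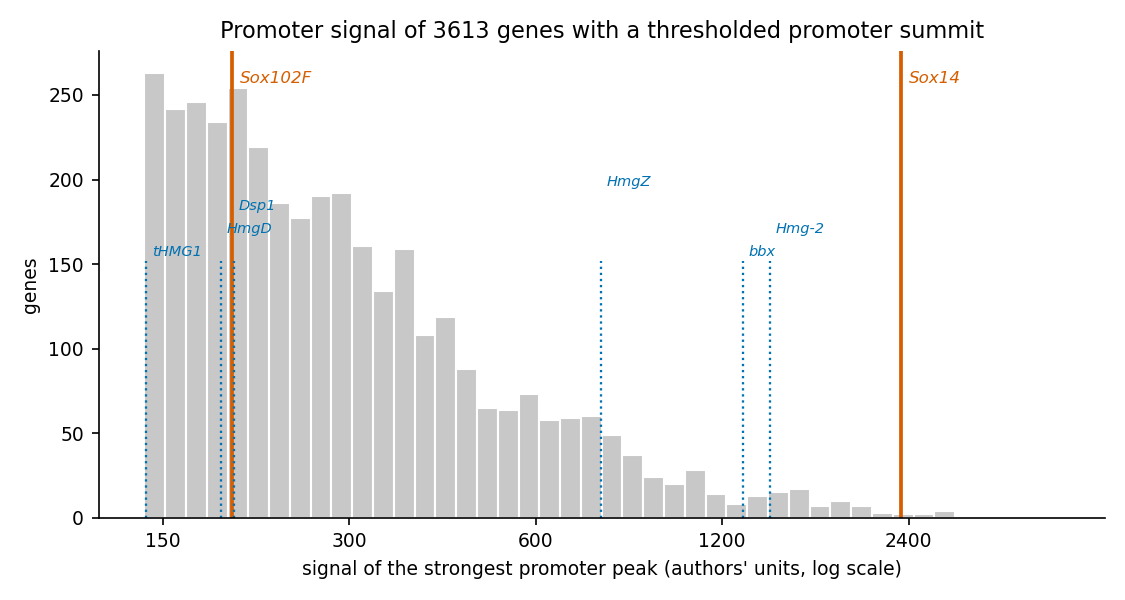
Number of genes (vertical axis) by signal of their strongest thresholded promoter peak (horizontal axis, authors' units, log scale) for the 3613 genes that have one. Solid lines mark Sox14 at 2331, far in the upper tail, and Sox102F at 194, below the median of 259. Dotted lines mark the 6 other HMG-box genes.

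Genes of the pathways and tissues in which Sox genes act were taken in 6 lists, put together with earlier results of these data known. Among genes of the ecdysone response and of neuronal pruning, the setting of Sox14, 10 of 16 had a thresholded promoter summit (62.5%, against 25.9% of coding genes). Within 250 bp 5 of 16 had one. The 25.9% holds for 500 bp, and no share of all coding genes was taken at 250 bp, so this lower count has no background beside it. The strongest were EcR, the ecdysone receptor (rank 697), Eip93F, an ecdysone-induced transcription factor (441, rank 881), and hid, which promotes cell death (399.5, rank 1077). Of gut progenitor genes around Sox21a, 8 of 16 had one (50%, against the same 25.9%), led by Stat92E, the JAK-STAT transcription factor (530.4, rank 632), bun (523, rank 651) and spi, a ligand of the EGF receptor (334, rank 1517). The 25.9% takes genes of all lengths, and the lists were not matched for gene length. By length class the share was 22.2% under 5 kb, 38% at 5 to 20 kb and 34.8% above. Each gene named from these lists had a lower signal than Sox14, as had 99.8% of all genes with a thresholded promoter summit. Sox21a itself had no promoter summit.

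The remaining 4 lists held between 11.1% and 30% bound genes, against 25.9% of coding genes. Neural and partner genes of group B had 2 of 18, elav, which encodes a neuronal RNA-binding protein (signal 941, rank 163), and nub, a POU factor (142, rank 6009). Sensory organ and wing genes around Sox15 had 2 of 10, Su(H), the transcription factor of the Notch pathway (157, rank 5194), and nub again. Testis genes around Sox100B had 3 of 10: fru, which specifies male behaviour (414, rank 1004), dsx, which specifies somatic sex (185, rank 4042), and zfh1 (155, rank 5253). Genes of Wnt signalling, listed with Sox102F, had 2 of 13, the kinase gene sgg (431, rank 927) and Apc (296, rank 1876). The Wnt count was 4 of 13 without replicate 1 and also at 1000 bp, and that of the sensory organ and wing genes was 1 of 10 without replicate 1. The 25.9% does not hold for these settings, and no share of all coding genes was taken for them. These lists share some genes, and together held 32 bound of 90 different genes with the HMG-box list included, where 25.9% of all coding genes were bound.

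**Figure D5:**
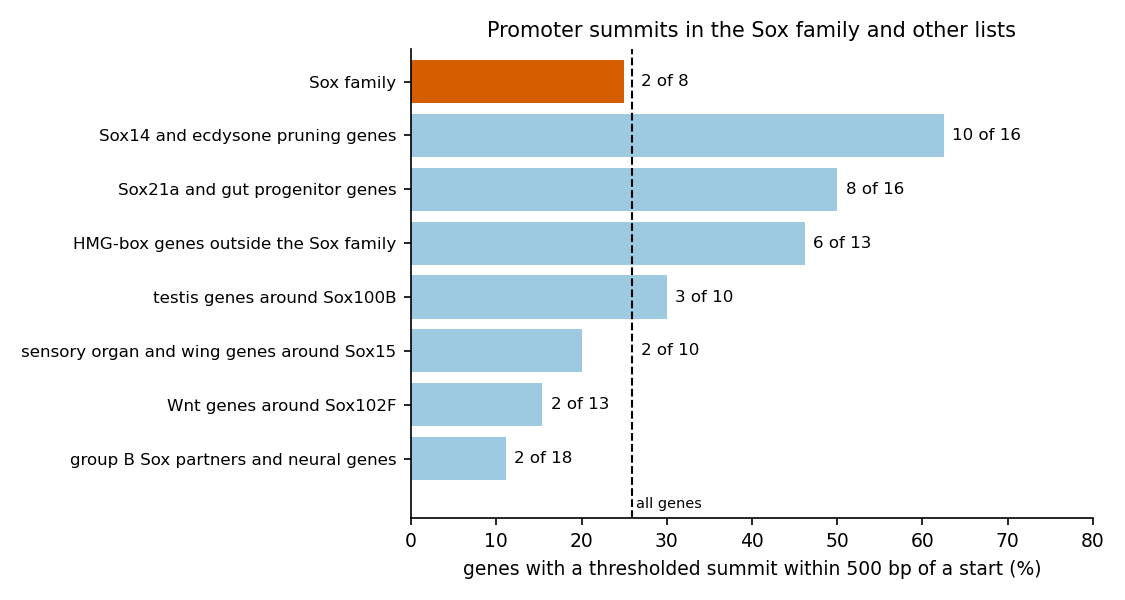
Share of genes with a thresholded promoter summit (horizontal axis, percent) in the Sox family and 7 other lists, with the count beside each bar. The dashed line is the share of all coding genes, 25.9%, beside which the Sox family stands at 2 of 8.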

How the data were processed

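Peak lists on dm6 were analysed from 2 replicates of whole adult males. The authors deposited, per the file headers of their accompanying notes, a list for each replicate and a pooled list, each derived from the alignments and a control alignment, and a list thresholded by IDR from these. The sources used here name no aligner, peak caller, IDR threshold or scaling of the deposited signal. The control and the dm3 lists were not analysed here. The summit is the deposited peak start plus the summit offset.

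Genes and starts come from Ensembl release 115 (BDGP6), limited to protein-coding transcripts on 2L, 2R, 3L, 3R, 4 and X, and sequence from RefSeq Release 6. Genes were matched by symbol, and names without a match were left out of the lists. Signals were compared by rank within a list. A replicate summit within 250 bp of a thresholded summit counted as the same. Motif windows were 200 bp. Assignment and motif search were tested on simulated data. Wilson intervals (95%) cover counting error over genes only.

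The genes, lists and distances were chosen with earlier results of these data known. Named genes are all Sox genes with their summits and neighbours, the HMG-box genes with a promoter summit, up to 3 of each other list with the highest promoter signal, and 2 promoter peaks on each side of Sox14 in rank. Alternatives were other promoter and locus distances, the stronger part of the thresholded list, each replicate's own leading peaks, the pooled list, nearest-start assignment, peak overlap, other matching distances and other motif windows. Python 3.11.15 and numpy 2.4.6 were used.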

Additional observations from a re-analysis of the deposited data

How the results depend on the processing

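The promoter call at Sox14 held under every alternative run, with ranks from 14 to 19: its rank was 14 without replicate 1 and 19 without replicate 2. The call at Sox102F was less stable. It was lost at a promoter distance of 250 bp, in the stronger 3033 thresholded peaks and without replicate 2, each of which left 1 of 8 Sox genes (Sox14), and its rank was 2724 without replicate 1. The count of 8 was 2 without replicate 1, and 6 in the whole pooled list. Without replicate 2 no rank of Sox102F could be given, because replicate 1 has no summit there. At 2 kb either side of the gene 2 loci had a thresholded summit, with 2 summits in all, as they did when only summits with the gene's own start as the nearest were counted, a choice made after seeing the data. At 10 kb the summits numbered 8. The stronger 3033 peaks left 2 loci and 3 summits, and the pooled list gave 8 loci and 42 summits, 1 of them counted for both Sox21a and Sox21b. Loci with a summit numbered 4 without replicate 1 and 2 without replicate 2, and summits 7 and 4. The summits found in the replicates numbered 5 in replicate 2 and 4 in replicate 1. Counting each motif once per window, the 5 summits held 12 in 200 bp and 4 in the central 100 bp. The other lists hold 90 different genes, of which 32 were bound, where 25.9% of all coding genes were. In the pooled list 59 had a promoter summit, where 55.8% of all coding genes had one. The count was 21 at 250 bp, 18 in the stronger 3033 peaks, 33 without replicate 1 and 30 without replicate 2. The ecdysone list fell from 10 to 5 of 16 at 250 bp and the testis list from 3 to 1 of 10. No share of all coding genes was taken at 250 bp, in the stronger 3033 peaks or in the leading peaks of a single replicate. In the stronger 3033 peaks the sensory organ and wing list had 0 of 10, and without replicate 1 it had 1, while the Wnt list had 4 of 13 without replicate 1 and 3 without replicate 2. Depth is unknown for these libraries, and the weak summits below the threshold cannot be told apart from the background that the whole lists include by design.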
